A study of Capra hircus with 3 samples.

Results

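Interleukins, chemokines and their receptors were examined in the lactating mammary gland of Laoshan dairy goats. The genes were taken by symbol: every protein-coding gene with a single NCBI gene ID whose symbol is CCL, CCR, CXCL, CXCR or IL followed directly by a digit was included, except IL6ST, and loci with the same ID were summed. This gave 71 genes of 13023 protein-coding genes, made up of 7 CC chemokines, 9 CXC chemokines, 10 chemokine receptors, 13 interleukins, 31 interleukin receptors with their binding and antagonist proteins, and the enzyme IL4I1. The gene table held 114 symbols of this kind, and the other 43 were not matched to a locus and were not analysed here. Among them were IL2, IL4, IL12A, IL12B, IL13, IL17A, IL22, CCL17, CCL22, CCR10, CXCR1 and CXCR5. Mammary tissue had been sampled surgically at early, peak and late lactation, on days 10, 90 and 210 after parturition, from goats that the methods describe as healthy, 4 years old and in the third lactation. All animals were of the same breed, were fed freely and were kept under natural light. The only treatment named is general anaesthesia with xylazine for the surgery, after which the glands were sutured and sterilized. As the methods read, the same 5 goats were sampled at all 3 stages, so they had been operated on before the peak and late samples. Earlier surgery and stage cannot be told apart in these libraries. The RNA of 5 goats was mixed in equal amounts at each stage, so each stage is 1 pooled library without replicates. No test was therefore possible, no error can be given for any value, and every difference below describes 3 libraries, not the spread among goats.

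Chemokines are small secreted proteins that guide leukocytes along concentration gradients, and they act through G protein-coupled receptors on the migrating cell. Interleukins signal through paired receptor chains, many of which recruit JAK kinases and STAT transcription factors, whereas receptors of the interleukin 1 family recruit adaptors shared with Toll-like receptors. In the lactating gland, CCL28 is known for attracting the plasma cells that supply milk IgA, and many of the other members are made by leukocytes or act on them.

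Levels are given as FPKM, the number of fragments scaled to transcript length and library size, always in the order early, peak and late lactation. The stage of a library is that of its label. The ratios between the peak and late columns ran opposite to those in the study's supplementary tables, so it cannot be told from these sources which label is the right one. An exchange of the labels would turn every statement about the peak library into one about the late library. The milk protein genes CSN3 and CSN1S1 were abundant in all 3 libraries, at 25446, 3989 and 27391 FPKM and at 25057, 12017 and 39445 FPKM, while LALBA was listed at 0 in the late library and at 70053 FPKM in the early one. A value of 0 is for this reason given below only as listed. The most abundant single locus made up 29.99%, 46.04% and 29.90% of the summed FPKM. Scaling the libraries to the same sum shifted every log2 ratio by 0.14 for peak over early, 0.13 for late over early and -0.02 for late over peak, and scaling on the loci below 1000 FPKM shifted them by 0.21, 0.02 and -0.19. The number of fragments behind each FPKM is unknown.

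In the early library 53 of the 71 genes reached 1 FPKM, in the peak library 61 and in the late library 43, or 74.6%, 85.9% and 60.6%. For all protein-coding genes these shares were 89.9%, 93.7% and 88.1%. The median level of the 71 genes was 2.75, 5.48 and 1.59 FPKM, beside 7.003, 7.211 and 6.779 FPKM over all protein-coding genes. The members thus stood at a median percentile of 25.8, 40.2 and 18.4 among the genes of their library. At least 1 library held 1 FPKM or more for 63 of the 71 members, and all 3 did so for 41. Of the 13023 protein-coding genes, 12546 reached 1 FPKM in at least 1 library and 11087 in all 3. The other 8 members were CCR4, CCR8, IL10, IL12RB1, IL18RAP, IL1RL1, IL23R and IL3RA. They stayed under 1 FPKM throughout, and the highest value among them was 0.980 FPKM, for IL12RB1 in the peak library.

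**Figure D1:**
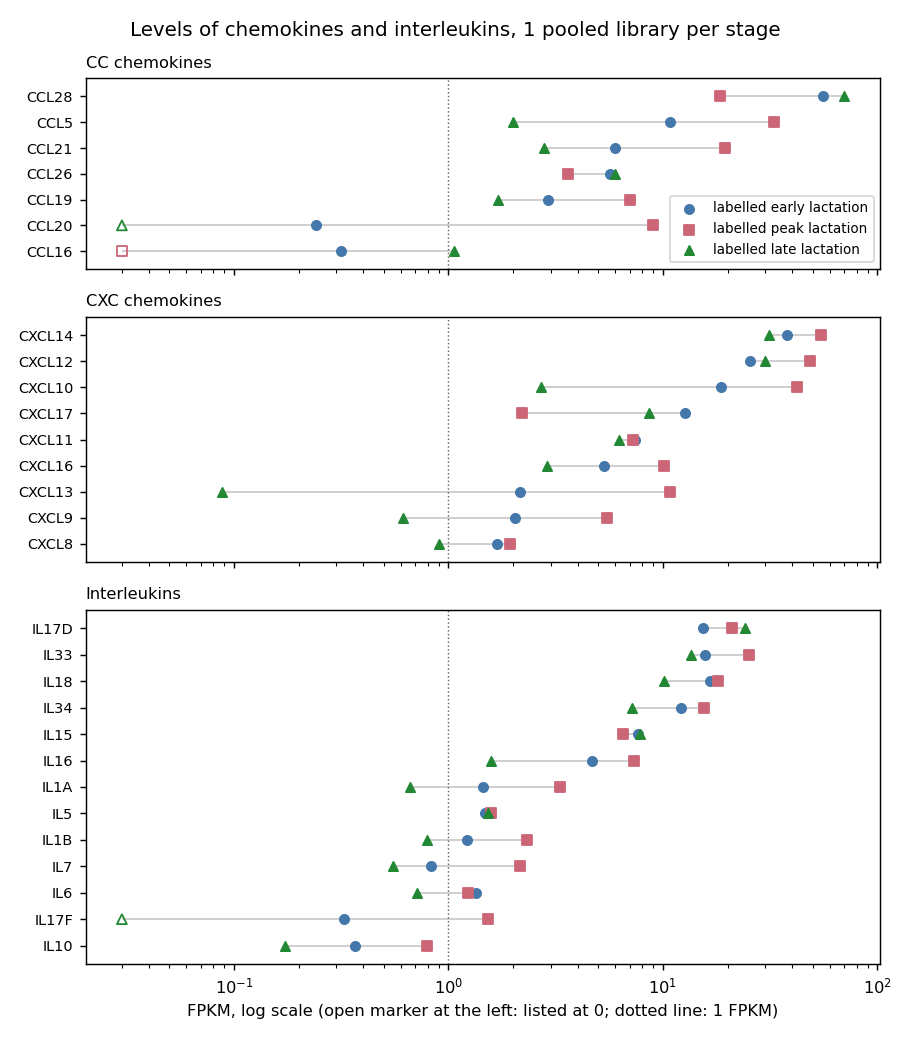
FPKM of each CC chemokine, CXC chemokine and interleukin on a log axis, with 1 point for each pooled library and open markers for genes listed at 0. For most ligands the square of the peak library lies to the right of the circle (early) and the triangle (late), with CCL28 and CXCL17 as clear exceptions.

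Among the CC chemokines, CCL28 was the most abundant, at 55.8, 18.5 and 70.0 FPKM. It was 3.01-fold lower in the peak than in the early library, and 3.77-fold higher in the late than in the peak library. CCL28 (gene ID 102176270, scaffold NW_005100890.1, 15106220 to 15122324) stood at percentile 95.1, 82.5 and 96.0, far above the median member in each library. CCL5, which attracts T cells and monocytes, showed the other direction, at 10.81, 32.82 and 2.003 FPKM. CCL21 and CCL19, both ligands of CCR7 that draw lymphocytes and dendritic cells into lymphoid tissue, had 5.97, 19.5 and 2.80 FPKM and 2.904, 7.001 and 1.698 FPKM. All these 3 genes were highest in the peak library and lowest in the late one, by 3.04-fold, 3.27-fold and 2.41-fold for peak over early and by 16.4-fold, 6.98-fold and 4.12-fold for peak over late. CCL20, the ligand of CCR6, was listed at 0.240, 8.97 and 0 FPKM, so its high value rested on the peak library alone. CCL26, an eosinophil attractant, had 5.66, 3.61 and 5.95 FPKM, and CCL16 had 0.315, 0 and 1.06 FPKM. These last values placed CCL26 and CCL16 with CCL28 as the CC chemokines that were lowest in the peak library.

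CXCL14 and CXCL12 were the most abundant CXC chemokines, at 37.9, 54.4 and 31.1 FPKM and at 25.5, 48.5 and 30.1 FPKM. CXCL12, the stromal ligand of CXCR4, was one of 2 CXC chemokines that were not lowest in the late library, and its 3 values lay within a 1.90-fold range. The interferon-inducible ligands of CXCR3 did not move together. CXCL10 had 18.6, 42.3 and 2.70 FPKM, a 2.28-fold difference between peak and early and a 6.89-fold difference between early and late. CXCL9 had 2.04, 5.48 and 0.613 FPKM, with ratios of 2.68 and 3.33 in the same comparisons, the latter resting on a value under 1 FPKM. CXCL11 had 7.44, 7.23 and 6.21 FPKM and so was nearly level. These 3 genes were listed at one and the same interval (NW_005100697.1, 5677765 to 5817719), yet each had its own values.

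Among members above 0 in all 3 libraries, the widest range was that of CXCL13 (gene ID 102191508, NW_005100697.1, 7075065 to 7081498), the chemokine that guides B cells into follicles. Its level was 2.15, 10.8 and 0.0874 FPKM, which is 5.03-fold higher in peak than in early. Its value in the late library was so low that the ratios of 24.6 for early over late and 124 for peak over late are sizes at a low level only. CXCL16, the membrane-bound ligand of CXCR6, had 5.33, 10.1 and 2.89 FPKM, and the neutrophil attractant CXCL8 had 1.68, 1.93 and 0.899 FPKM. Both were highest in the peak library, CXCL8 by a small margin. CXCL17, a chemokine of mucosal epithelia, had 12.6, 2.20 and 8.64 FPKM. It was 5.74-fold higher in early and 3.93-fold higher in late than in peak, and apart from CCL28 it was the one member with at least 1 FPKM in both libraries that was 2-fold lower in peak in either comparison.

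The chemokine receptors had a low median level of 1.13, 1.30 and 0.706 FPKM. The order peak above early above late held for 9 of 10, beside 30.6% of all protein-coding genes. CXCR4, the receptor of CXCL12 on most leukocytes, was the most abundant, at 7.19, 19.6 and 3.25 FPKM. CXCR6, found on effector T cells, had 3.04, 7.98 and 1.24 FPKM. Both were higher in peak than in early, by 2.73-fold and 2.63-fold, and higher in early than in late, by 2.21-fold and 2.45-fold. CCR6, the receptor of CCL20, had 1.498, 3.773 and 0.650 FPKM. CCR7, the receptor of CCL19 and CCL21, had 0.623, 1.48 and 0.302 FPKM, and CXCR3, the receptor of CXCL9 to CXCL11, had 0.642, 1.11 and 0.0647 FPKM. Their ratios had the same direction but rested on values near or under 1 FPKM. CXCR2, the receptor of CXCL8 on neutrophils, was close to level at 1.02, 1.11 and 0.762 FPKM. CCR3, an eosinophil receptor that also binds CCL26 and CCL28, had 1.24, 0.980 and 1.19 FPKM and was the receptor that broke the order. This was the sum of 2 loci that ran opposite ways, at 0.926, 0.412 and 0 FPKM and at 0.315, 0.568 and 1.19 FPKM, and neither locus was lowest in peak. CCR4 and CCR8, receptors of T cell subsets, remained between 0 and 0.923 FPKM.

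The most abundant interleukins were IL17D, IL33, IL18 and IL34. IL17D had 15.3, 20.9 and 24.1 FPKM, IL33, a nuclear alarmin, had 15.7, 25.2 and 13.6 FPKM, and IL18, an inflammasome-processed cytokine, had 16.7, 18.0 and 10.1 FPKM. IL34, the second ligand of the CSF1 receptor on macrophages, had 12.2, 15.6 and 7.20 FPKM. None of these 4 interleukins differed by 2-fold between peak and early, and IL17D was the only one highest in the late library. IL15, which maintains natural killer and memory T cells, had 7.67, 6.48 and 7.79 FPKM and differed little. IL16, a lymphocyte attractant, had 4.66, 7.35 and 1.57 FPKM. Its ratio of early over late, 2.96, was the largest of an interleukin with at least 1 FPKM in both libraries.

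IL1A, IL1B and IL6, which drive acute inflammation, were at lower levels. IL1A had 1.45, 3.31 and 0.662 FPKM, IL1B had 1.22, 2.33 and 0.795 FPKM, and IL6 had 1.34, 1.24 and 0.715 FPKM. IL1A was 2.28-fold and IL1B 1.91-fold higher in peak than in early, whereas IL6 was slightly lower as the sum of 2 loci. These ran opposite ways, at 0.919, 0.131 and 0 FPKM and at 0.420, 1.10 and 0.715 FPKM, and the log2 ratio of peak over early turned from -0.12 for the sum to 0.27 for the highest locus. IL7, which supports lymphocyte survival, had 0.831, 2.15 and 0.552 FPKM, and IL17F, a cytokine that acts on epithelium and recruits neutrophils, had 0.324, 1.53 and 0 FPKM. IL5, the eosinophil cytokine, was level at 1.48, 1.57 and 1.54 FPKM. The anti-inflammatory IL10 did not pass 0.795 FPKM. IL4I1, a secreted enzyme that degrades phenylalanine, had 3.69, 3.41 and 2.65 FPKM.

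**Figure D2:**
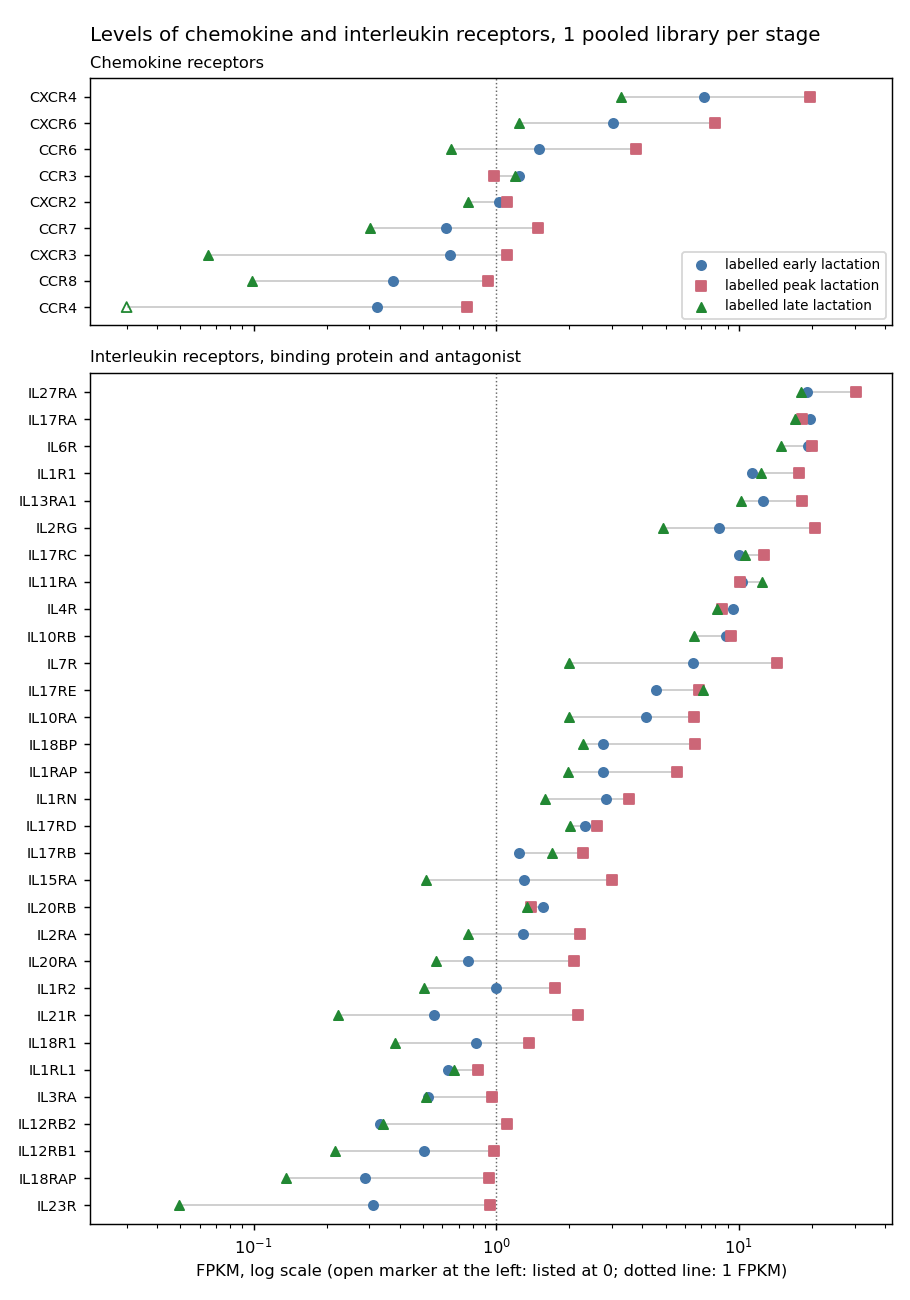
FPKM of each chemokine receptor, interleukin receptor, binding protein and receptor antagonist on a log axis, with 1 point for each pooled library and an open marker for CCR4, listed at 0 in the late library. The squares of the peak library lie to the right for 8 of the 9 chemokine receptors drawn and for 26 of 31 interleukin receptors and related proteins.

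Receptors of the interleukin 1 family differed by chain. IL1R1, the signalling receptor of IL1A and IL1B, had 11.3, 17.7 and 12.3 FPKM, and its partner chain IL1RAP had 2.75, 5.58 and 1.97 FPKM. The decoy receptor IL1R2 had 1.003, 1.743 and 0.502 FPKM, and the antagonist IL1RN had 2.83, 3.51 and 1.59 FPKM. IL1R1 was thus the more abundant of these in each library and varied the least, while IL1RAP was 2.03-fold higher in peak than in early and 2.84-fold higher in peak than in late. For IL18, the receptor chain IL18R1 had 0.829, 1.37 and 0.382 FPKM, and IL18BP, which neutralises IL18, had 2.74, 6.61 and 2.28 FPKM. IL18BP was 2.41-fold higher in peak than in early, while IL18 itself was almost equal in both. The second chain IL18RAP and the IL33 receptor IL1RL1 did not pass 0.936 and 0.844 FPKM, so that the ligands IL18 and IL33 were at a far higher level per length than their dedicated receptors.

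The common gamma chain IL2RG, shared by the receptors of several lymphocyte interleukins, had 8.27, 20.6 and 4.86 FPKM. IL7R, a marker of naive and memory T cells, had 6.460, 14.33 and 2.003 FPKM. Both were among the interleukin receptors with the widest range above 1 FPKM, with 2.49-fold and 2.22-fold higher levels in peak than in early and 4.24-fold and 7.16-fold higher levels in peak than in late. IL15RA had 1.30, 2.99 and 0.512 FPKM, IL2RA, the high-affinity chain of activated and regulatory T cells, had 1.29, 2.22 and 0.766 FPKM, and IL21R had 0.554, 2.17 and 0.223 FPKM. IL4R had 9.45, 8.51 and 8.10 FPKM, and IL13RA1, its partner outside the blood lineages, had 12.6, 18.2 and 10.2 FPKM. The gamma chain, IL7R, IL15RA, IL2RA and IL21R thus had the order peak above early above late, whereas IL4R, which can also pair with the gamma chain, varied by less than 1.2-fold.

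IL10RA, the leukocyte chain of the IL10 receptor, had 4.145, 6.510 and 1.998 FPKM, and was 2.07-fold higher in early than in late. The widely expressed second chain IL10RB had 8.88, 9.25 and 6.52 FPKM. IL12RB2, of the IL12 receptor, had 0.333, 1.11 and 0.340 FPKM, and the chains IL12RB1 and IL23R did not pass 0.980 and 0.945 FPKM. IL27RA was the most abundant receptor in the peak library, at 19.1, 30.4 and 18.0 FPKM. IL6R had 19.3, 20.1 and 14.9 FPKM, and IL11RA had 10.3, 10.1 and 12.5 FPKM. The last of these was the one interleukin receptor that was lowest in the peak library, although its 3 values were close together.

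Of the receptors for the IL17 cytokines, which act on epithelium and stroma, IL17RA was close to level. IL17RA, the common chain, had 19.6, 18.2 and 17.1 FPKM, and IL17RC had 10.0, 12.7 and 10.5 FPKM. IL17RE had 4.56, 6.86 and 7.12 FPKM, IL17RD had 2.32, 2.59 and 2.01 FPKM, and IL17RB had 1.24, 2.28 and 1.70 FPKM. None of these 5 receptors differed by 2-fold in any comparison. IL17RB was 1.84-fold higher in peak than in early, and IL17RE 1.56-fold higher in late than in early. IL20RA and IL20RB, which form an epithelial receptor of the IL20 group, had 0.763, 2.09 and 0.563 FPKM and 1.55, 1.39 and 1.34 FPKM, and IL3RA stayed between 0.512 and 0.962 FPKM.

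CXCL13, CCL21, CCL5 and CXCR4 were higher in the peak than in the early library, whereas CXCL17 and CCL28 were lower and CXCL11 was level. Of the members, 27 were at least 2-fold higher in peak and 3 at least 2-fold lower. Over all protein-coding genes 10.9% were 2-fold higher in peak and 6.8% were 2-fold lower, and among the members these shares were 38.0% and 4.23%. The 27 comprised 4 CC chemokines, 3 CXC chemokines, 6 chemokine receptors, 4 interleukins and 10 interleukin receptors or related proteins. With at least 1 FPKM in both libraries, the largest ratios belonged to CXCL13, CCL21, CCL5, CXCR4, CXCL9, CXCR6 and CCR6, from 5.03 down to 2.52. The 3 lower genes were CXCL17, CCL28 and CCL16, the last listed at 0 in peak. The median log2 ratio was 0.79, beside 0.01 for all protein-coding genes. Of the 30 ratios past 2-fold, 13 rested on a value under 1 FPKM. The other 17, 15 of them higher, were among 52 members with at least 1 FPKM in both libraries. Over all protein-coding genes, 874 of 2307 ratios past 2-fold rested on a value under 1 FPKM. At least 1 FPKM in both libraries was held by 11479 genes.

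Every class except the enzyme held members that were at least 2-fold lower in the late than in the early library. Of the members, 26 were at least 2-fold lower in late and 1, CCL16, was 2-fold higher, from 0.315 FPKM in early. Over all protein-coding genes 6.74% were at least 2-fold lower in late and 1.97% were 2-fold higher, against 36.6% and 1.41% of the members. Chemokine receptors had the greatest share, with 8 of 10 lower, followed by 3 of 7 CC chemokines, 3 of 9 CXC chemokines, 4 of 13 interleukins and 8 of 31 interleukin receptors or related proteins. With at least 1 FPKM in both libraries, CXCL10, CCL5, IL7R, IL16, CXCR6, CXCR4, CCL21 and IL10RA were among those lower, by 6.89-fold down to 2.07-fold. The median log2 ratio of late over early was -0.73, beside -0.03 for all protein-coding genes. Of the 27 ratios past 2-fold, 18 rested on a value under 1 FPKM. The other 9 were among 42 members with at least 1 FPKM in both. Over all protein-coding genes, 809 of 1132 ratios past 2-fold rested on a value under 1 FPKM, and 11234 genes reached 1 FPKM in both.

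Between the late and the peak library 40 members were at least 2-fold lower in late and 3 were at least 2-fold higher, namely CXCL17, CCL28 and CCL16. Over all protein-coding genes 17.4% were at least 2-fold lower in late and 8.56% were 2-fold higher, against 56.3% and 4.23% of the members. CCL5 and CXCL10 had the largest ratios with at least 1 FPKM in both libraries, at 16.4 and 15.7 for peak over late, followed by IL7R, CCL21, CXCR6 and CXCR4 at 7.16, 6.98, 6.42 and 6.02. Chemokine receptors had a median log2 ratio of -2.56, CC chemokines of -2.04, interleukin receptors and related proteins of -1.14, interleukins of -1.11 and CXC chemokines of -1.10. The 3 comparisons share their libraries and are not independent of each other. Of the 43 ratios past 2-fold, 25 rested on a value under 1 FPKM. The other 18 were among 41 members with at least 1 FPKM in both. Over all protein-coding genes, 1356 of 3377 ratios past 2-fold rested on a value under 1 FPKM, and 11200 genes reached 1 FPKM in both.

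**Figure D3:**
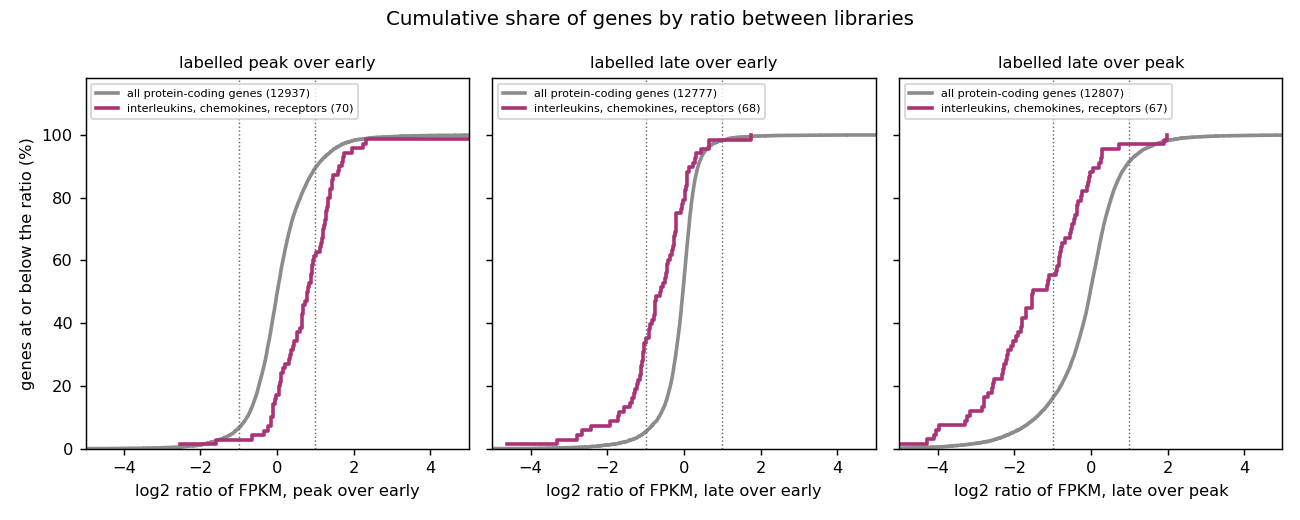
Cumulative share of genes (in percent, vertical axis) at or below a given log2 ratio of FPKM (horizontal axis) for the 71 genes except those listed at 0 and for all protein-coding genes, in each of the 3 comparisons, with dotted lines at a 2-fold difference. Over most of its range the members' curve lies to the right of that of all genes for peak over early and to the left for late over early and late over peak, and the ratios of CCL20 for peak over early and of CXCL13 for late over peak lie beyond the plotted range.

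The order peak above early above late held for 49 of the 71 members, or 69.0%, and for 30.6% of all protein-coding genes. The peak library had the highest of the 3 values for 56 members, or 78.9%, and for 43.7% of all protein-coding genes. It had the lowest value for 7 members, or 9.86%, and for 41.2% of all protein-coding genes. These 7 were CCL16, CCL26, CCL28, CXCL17, CCR3, IL15 and IL11RA. The late library had the lowest value for 55 members, or 77.5%, and for 38.8% of all protein-coding genes.

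Ligands and their receptors did not always share an order. CCL20 with CCR6, CCL19 and CCL21 with CCR7, CXCL9 and CXCL10 with CXCR3, and CXCL16 with CXCR6 all ran peak above early above late. CXCL12 was lowest in the early library while its receptor CXCR4 was lowest in the late one. IL15 was lowest in the peak library, where IL15RA and IL2RG were highest. IL7 and IL7R were both highest in peak, at 2.59-fold and 2.22-fold over early, the former from a value under 1 FPKM. CCL28 and CCL26 were lowest in the peak library. So was CCR3, a receptor of both, as the sum of its 2 loci, though not at either locus. CCR10, the other receptor of CCL28, was among the symbols not matched to a locus.

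The summed T cell, macrophage and neutrophil markers had the order peak above early above late, as most members did, and the summed B and plasma cell markers the order peak above late above early. Their part in the results was not tested. In whole tissue, fewer cells of a type and less RNA per cell cannot be told apart. The summed FPKM of 8 T cell markers was 25.93, 64.53 and 11.03, with 6 of 7 markers above 0 at least 2-fold higher in peak than in early, where all protein-coding genes had 10.9%, and 7 of 8 at least 2-fold lower in late than in peak, where all had 17.4%. CD3E, a defining marker of T cells, was listed at 0 in the early and the peak library and at 1.43 FPKM in the late one, unlike the other 7. The 8 B and plasma cell markers summed to 293, 524 and 355 FPKM, most of it from JCHAIN at 266, 429 and 337 FPKM, and 6 of 8 were 2-fold higher in peak than in early. The B cell marker MS4A1 had 0.239, 3.07 and 0.132 FPKM, next to the 2.15, 10.8 and 0.0874 FPKM of CXCL13. The 8 matched of 9 macrophage markers summed to 186, 320 and 98.1 FPKM, none of them 2-fold different between peak and early and 6 of 8 at least 2-fold lower in late than in peak. The 5 matched of 7 neutrophil markers summed to 14.9, 26.8 and 5.94 FPKM, with S100A8 listed at 0 in the late library. The macrophage marker CD14 was level at 12.4, 12.5 and 11.3 FPKM, and the neutrophil marker CSF3R was highest in late, at 2.47, 2.44 and 2.70 FPKM.

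The sums of the other marker lists did not have the order peak above early above late, although single markers did, such as DCN, PDGFRA, KRT5 and KRT18. The 6 endothelial markers summed to 128, 117 and 141 FPKM with no 2-fold difference, the 6 fibroblast markers to 664, 549 and 542 FPKM, and the 5 myoepithelial markers to 255, 247 and 259 FPKM. The 3 matched of 5 adipocyte markers summed to 18.1, 5.85 and 6.41 FPKM. The 9 markers of milk-secreting and luminal epithelium summed to 126157, 33501 and 73897 FPKM, and 6 of them were at least 2-fold lower in peak than in early, against 6.8% of all protein-coding genes. Without LALBA, the listed 0, the sums were 56105, 18287 and 73897 FPKM, so that late stood above early. CCL28 and CXCL17, too, were lowest in the peak library. Of the same list KRT8 and KRT18 were highest in peak, at 126, 196 and 154 FPKM and at 20.97, 32.03 and 19.55 FPKM. CSN3, BTN1A1, XDH and ELF5 were among those lowest in peak, and their values in that library were 3989, 1241, 509 and 244 FPKM beside 25446, 2940, 1558 and 879 FPKM in the early one. The part of these cells in the levels of CCL28 and CXCL17 was not tested.

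**Figure D4:**
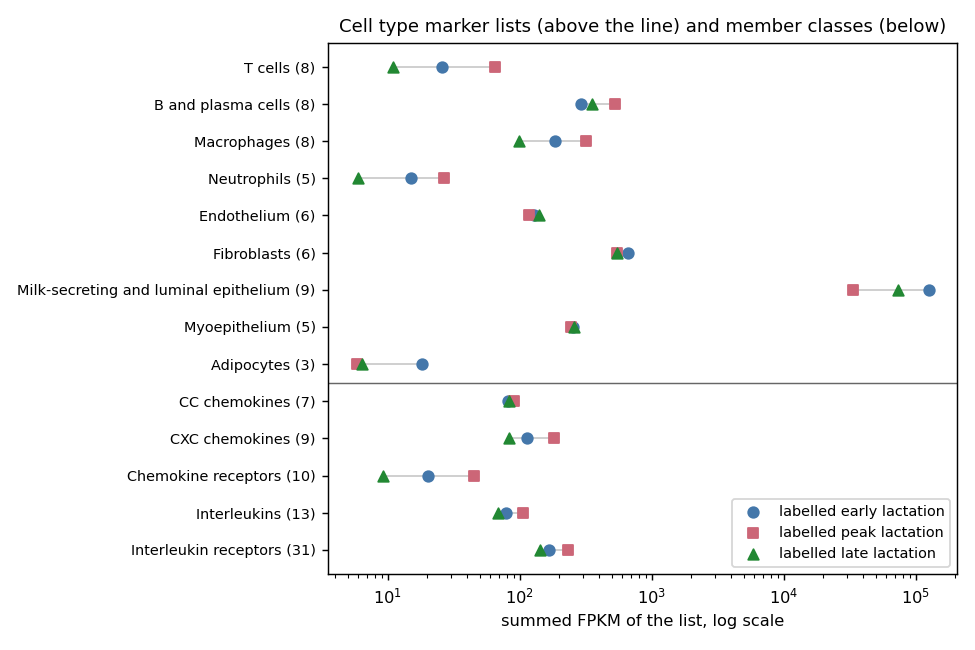
Summed FPKM of each cell type marker list (above the line, number of matched genes in brackets) and of each class of the 71 genes (below the line) on a log axis, with 1 point for each pooled library. The T cell, macrophage and neutrophil sums and the chemokine receptor sum (20.2, 45.3 and 9.15 FPKM) have the order peak above early above late, and the sum of milk-secreting and luminal epithelium is lowest in the peak library.

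The signalling genes downstream of these receptors were counted in the same way. Of 18 matched genes of the JAK and STAT pathway and its feedback, 3 were at least 2-fold higher and 3 at least 2-fold lower in peak than in early, beside 10.9% and 6.8% of all protein-coding genes. JAK3, the kinase that binds the gamma chain IL2RG, had 3.36, 22.7 and 1.10 FPKM, STAT4, which acts downstream of the IL12 receptor, had 0.733, 2.23 and 0.423 FPKM, and the feedback inhibitor SOCS3 had 4.87, 10.7 and 1.69 FPKM. These 3 genes had the order of most members. The lower genes were the feedback inhibitors CISH, SOCS2 and SOCS1, at 16.0, 4.19 and 9.50 FPKM, at 24.0, 7.64 and 25.0 FPKM and at 4.14, 2.04 and 1.29 FPKM. STAT3 was level at 41.3, 40.9 and 38.6 FPKM. In late against early 3 of the 18 genes, JAK3, SOCS1 and SOCS3, were at least 2-fold lower and 0 higher, beside 6.74% and 1.97% of all genes. In late against peak 4 were lower and 2, SOCS2 and CISH, higher, beside 17.4% and 8.56%.

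The same shares of all genes stand beside the counts of the other lists. Of 12 matched genes of interleukin 1 and Toll-like receptor signalling and the inflammasome, 1 was 2-fold higher in peak than in early. It was the inhibitory kinase IRAK3, with 2.48, 6.30 and 2.63 FPKM. In late against early 1, the inflammasome sensor NLRP3 with 1.71, 1.41 and 0.426 FPKM, was 2-fold lower, and in late against peak both these genes were lower. Of 12 matched genes of the chemokine system with other symbols, 2 were 2-fold higher in peak than in early, CX3CL1, from a value under 1 FPKM, and its receptor CX3CR1, with 1.35, 4.13 and 1.46 FPKM. One was 2-fold lower, DPP4, a protease that trims several chemokines, with 9.66, 3.69 and 7.11 FPKM. In late against early 2 were lower, XCR1 with 0.538, 0.819 and 0.170 FPKM and ACKR1 with 2.06, 1.92 and 0.686 FPKM. In late against peak 5 were lower. Of 5 matched shared receptor chains, CSF2RB was 2-fold lower in peak, at 200.1, 65.8 and 206 FPKM, whereas IL6ST, the chain with which IL6R and IL11RA signal, had 25.4, 40.4 and 23.1 FPKM and OSMR had 12.9, 20.1 and 6.77 FPKM.

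Some members were close neighbours. On the scaffolds of the deposited coordinates, whose assembly is not named in the sources used here, 42 of the 71 members shared a scaffold with another member. Where their intervals differed, neighbouring members lay from 232 bases (IL17RC and IL17RE) to 14039857 bases (CXCL16 and CCR7) apart. CCL19 (NW_005100741.1, 10438774 to 10440794) and CCL21 (10460918 to 10462170) were 20123 bases apart and had the same order of levels, while IL11RA, 21037 bases from CCL19, was the interleukin receptor lowest in peak. IL1A and IL1B, 47670 bases apart on NW_005100774.1, and IL15RA and IL2RA, 15735 bases apart on NW_005100800.1, also had the same order as each other. On NW_005100769.1 the receptors IL1R2, IL1R1, IL1RL1, IL18R1 and IL18RAP followed each other, and IL1R1 with IL1RL1 was lowest in early, the other 3 in late. IL4R and IL21R, 44590 bases apart on NW_005100934.1, had different orders, with a 3.91-fold higher level in peak than in early for IL21R, from a value under 1 FPKM, and a slightly lower one for IL4R. For 11 members the interval was listed for another entry as well, among them CXCL9, CXCL10, CXCL11, CCR3, CXCR6 and IL6, and how fragments were divided among entries of such an interval is not given in the sources used here.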

How the data were processed

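Total RNA from mammary tissue of 5 goats was pooled per stage, and 1 stranded library was sequenced for each of 3 stages. After trimming, the authors used TopHat for mapping, Cufflinks and Cuffmerge for transcript assembly, and Cuffdiff for quantification. The submitters' processing notes name TopHat2 2.0.9, Cufflinks 2.1.1 and Bowtie2. The deposited values are FPKM per locus, 1 column for each library, and were used as deposited. Gene IDs were looked up for symbol and class in a RefSeq gene table (assembly ARS1.2), and loci of one ID were summed (75 loci for 71 genes, 4 with more than 1 locus). No genome was used.

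A gene was called apart where the ratio of FPKM was at least 2, among genes above 0 in either library, with 0 set to 0.001. No test was run with 1 library per stage, and the same share over all protein-coding genes was given beside the main counts of members. Every member of at least 1 FPKM in any library was named, the others by name and range, except that 1 member, included in the counts, is not reported by itself here. Ratios with a value under 1 FPKM are named as such or have their values beside them. The members and lists were chosen with earlier results of these data known. Alternatives were a 4-fold limit, pseudocounts of 0.1 and 1, a minimum of 1 FPKM in both libraries, limits of 0.5 and 2 FPKM, single loci, other scalings, genes alone at their locus, and exchanged columns. Fold counting was tested on simulated data. Python 3.11.15, numpy 2.4.6, pandas 2.3.3 and matplotlib 3.10.9 were used.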

Additional observations from a re-analysis of the deposited data

How the results depend on the processing

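With 1 library per stage there was no replicate to leave out. As the methods read, the same goats were sampled at each stage. No paired analysis was possible, because their RNA was pooled into 1 library per stage. Members at least 2-fold apart numbered 30 between peak and early, 27 between late and early and 43 between late and peak. A 4-fold limit gave 5, 8 and 27, a pseudocount of 1 gave 15, 6 and 27, and a minimum of 1 FPKM in both libraries gave 17, 9 and 18. In each of these the direction of most calls was kept, but for peak over early at the 4-fold limit only by 3 higher against 2 lower. Of these 5, CCL20, IL17F and CCL16 rested on a value under 1 FPKM. For late over early the 4-fold limit gave 0 higher and 8 lower, and for late over peak 1 higher and 26 lower. Under the pseudocount of 1, 13 of 15 were higher in peak, and 6 of 6 and 24 of 27 were lower in late. All alternative settings, here and below, were counted for the members only, without the share over all protein-coding genes. For the minimum of 1 FPKM in both libraries, counts over all genes are given with each comparison above. Apart from exchanged columns, the other settings stayed within 1.5-fold of the counts: a pseudocount of 0.1, loci kept apart, the same sum for all libraries (36, 21 and 43), centring on all genes, members alone at their locus (27, 22 and 38) and, chosen after seeing the data, scaling without loci of 1000 FPKM or more (38, 27 and 47) and leaving out genes listed at 0 (29, 24 and 39). The members that reached the limit numbered 62, 70 and 57 in early, peak and late at 0.5 FPKM and 40, 50 and 31 at 2 FPKM.

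Exchanging the columns labelled peak and late inverts each ratio of late over peak and swaps the other comparisons, so that peak against early had 27 members at least 2-fold apart (1 higher, 26 lower), late against early 30 (27 higher, 3 lower) and late against peak 43 (40 higher, 3 lower). The log2 ratio of peak over early then was -0.77 for CCL19, -1.09 for CCL21, 0.33 for CCL28, -2.43 for CCL5, -1.20 for CCR6, -2.78 for CXCL10, -4.62 for CXCL13, -1.73 for CXCL9, -1.14 for CXCR4, -1.29 for CXCR6, -1.35 for IL15RA, -0.27 for IL18BP, -1.13 for IL1A, -0.48 for IL1RAP, -0.77 for IL2RG and -1.69 for IL7R. Of these, the ratios of CCR6, CXCL13, CXCL9, IL15RA and IL1A rested on a value under 1 FPKM. The log2 ratio of late over early was 1.71 for CCL21, 1.60 for CCL5, 1.19 for CXCL10 and 1.45 for CXCR4. It was 1.39 for CXCR6, 0.65 for IL10RA, 0.66 for IL16 and 1.15 for IL7R.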
